A study of Mus musculus with 8 samples.

Results

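The 34 genes described here are the core genes of glucose use. They comprise the facilitative glucose transporters, the enzymes of glycolysis, the lactate dehydrogenases and lactate carriers, the pyruvate dehydrogenase subunit *Pdha1* with 3 of its kinases, and the enzymes of the pentose phosphate pathway. They were chosen by name, with earlier results of these data known, and each has a row among the 48709 genes listed for every library. RNA-Seq was done on pancreata of 8-week-old male mice, 24 hours after saline or after palmitoleic acid (POA) with ethanol, which is the alcoholic severe acute pancreatitis model (FAEE-SAP). WT mice were bought from a supplier. The cKO mice carried *Pfkfb3* fl/fl with Cre under the *Pdx1* promoter on a C57BL/6J background, which aims the deletion at cells of the pancreatic lineage. The WT animals were thus not littermates of the cKO. All mice were fasted before induction. The FAEE-SAP mice were also given buprenorphine with the first injection, and saline just before the injections. Whether the saline group received buprenorphine is not stated. Each of the 4 groups had 2 libraries (WT saline, WT FAEE-SAP, cKO saline, and cKO FAEE-SAP), and p-values measure the spread between these libraries.

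Glycolysis splits glucose into pyruvate and yields ATP without oxygen. Hexokinases trap glucose in the cell, phosphofructokinase (PFK-1) commits it to the pathway, and pyruvate kinase makes the last step. Pyruvate then either becomes lactate through lactate dehydrogenase or enters the mitochondrion, where the pyruvate dehydrogenase complex turns it into acetyl-CoA. The pentose phosphate pathway branches off below hexokinase and supplies NADPH and ribose. The deleted gene, *Pfkfb3*, encodes an enzyme that makes fructose-2,6-bisphosphate, an activator of PFK-1. Acinar cells, the enzyme-secreting cells that fill most of the pancreas, draw on both glycolysis and mitochondria for ATP.

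FAEE-SAP in WT pancreata changed 3 of the 28 genes tested, beside 6.89% of all genes, and leaving out any of the 4 WT libraries ended the 3 calls. *Pfkm*, a subunit of PFK-1, and *Pdha1*, a subunit of pyruvate dehydrogenase, fell. *Pgd*, an enzyme of the pentose phosphate pathway, rose. No gene tested passed between cKO and WT, after saline (24 tested) or after FAEE-SAP (28), nor with FAEE-SAP in cKO (25). A gene was called at an adjusted p (Benjamini-Hochberg, limma across all genes tested) under 0.05 with a fold change of 2 or more. Levels below are scaled RPKM, meaning the deposited RPKM divided by a factor per library. Differences are log2 fold changes of scaled RPKM + 0.1.

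The promoters of the 3 called genes are shown because these are the genes of the 34 that passed the test. Each run is the RefSeq window of 300 bases (build GRCm38.p6) from 250 bases before to 50 bases after a start site, written 5′ to 3′ on the gene's strand. Capitals mark ACGTG or GCGTG, the core bound by hypoxia-inducible factors, or CACGTG, the E-box bound by MYC and carbohydrate-response factors, on either strand. An E-box holds ACGTG on both strands. Where RefSeq listed several starts, as for *Pfkm* with 4 and *Pgd* with 2, the window nearest the start of the principal GENCODE transcript was taken.
Pfkm chr15:98092339-98092638 (plus strand): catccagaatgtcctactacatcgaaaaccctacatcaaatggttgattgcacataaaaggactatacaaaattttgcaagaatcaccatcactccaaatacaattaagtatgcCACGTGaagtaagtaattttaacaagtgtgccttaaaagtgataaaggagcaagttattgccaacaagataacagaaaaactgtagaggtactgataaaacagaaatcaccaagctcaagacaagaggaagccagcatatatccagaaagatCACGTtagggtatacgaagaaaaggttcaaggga
Pdha1 chrX:160138381-160138680 (minus strand): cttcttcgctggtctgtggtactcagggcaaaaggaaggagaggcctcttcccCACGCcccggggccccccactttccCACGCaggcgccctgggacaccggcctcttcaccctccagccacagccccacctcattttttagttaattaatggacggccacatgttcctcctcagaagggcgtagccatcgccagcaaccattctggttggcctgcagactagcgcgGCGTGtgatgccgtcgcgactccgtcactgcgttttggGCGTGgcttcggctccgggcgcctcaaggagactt
Pgd chr4:149166656-149166955 (minus strand): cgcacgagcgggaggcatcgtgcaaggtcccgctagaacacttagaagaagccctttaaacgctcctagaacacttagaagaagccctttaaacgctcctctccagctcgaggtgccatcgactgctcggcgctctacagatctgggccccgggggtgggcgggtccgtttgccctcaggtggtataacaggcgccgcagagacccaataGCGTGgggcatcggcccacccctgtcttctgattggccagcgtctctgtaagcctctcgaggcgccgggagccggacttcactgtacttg

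The *Pfkm* window held 1 E-box and 3 matches to ACGTG, of which 2 are the strands of that E-box. The *Pdha1* window held 4 matches to GCGTG on the 2 strands, and the *Pgd* window held 1. A match to ACGTG or GCGTG stood in 34 of 48 windows (70.8%) of the 33 genes with an entry, and in 43.8% of all 32851 windows. The E-box stood in 4 of the 48 windows (8.33%) and in 7.15% of all windows. The antioxidant response core TGACNNNGC stood in 6 of the 48 (12.5%) and in 12.4% of all windows, and in none of the 3 windows shown. These are matches of letters and not measured sites.

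Levels of the 34 genes ran from 0 to about 23 scaled RPKM. In WT saline the highest were *Aldoa* (aldolase, mean 17.0), *Pkm* (the muscle-type pyruvate kinase, 15.6), and *Pdha1* (13.9). Neighbours in this order overlapped between libraries: *Aldoa* was 16.7 and 17.4, *Pkm* was 14.2 and 16.9, and *Pdha1* was 15.0 and 12.8. In total, 10 genes averaged at least 5 scaled RPKM in every group, and 10 stayed under 1 in every library. The transporters and hexokinases sat low, with *Slc2a1* (GLUT1) between 0.842 and 1.72 and *Hk2* between 0.418 and 1.45 over all 8 libraries. *Slc2a2* (GLUT2, of islet beta cells and liver) ranged from 0.0329 to 0.437, and *Pklr* (the liver and red-cell pyruvate kinase) from 0.0829 to 0.501. *Pgam2*, the muscle phosphoglycerate mutase, was listed above 0 in 1 library only, WT FAEE-SAP replicate 2. The summed level of the 34 genes was 143 and 152 in WT saline, 168 and 150 in WT FAEE-SAP, 155 and 153 in cKO saline, and 175 and 179 in cKO FAEE-SAP.

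**Figure D1:**
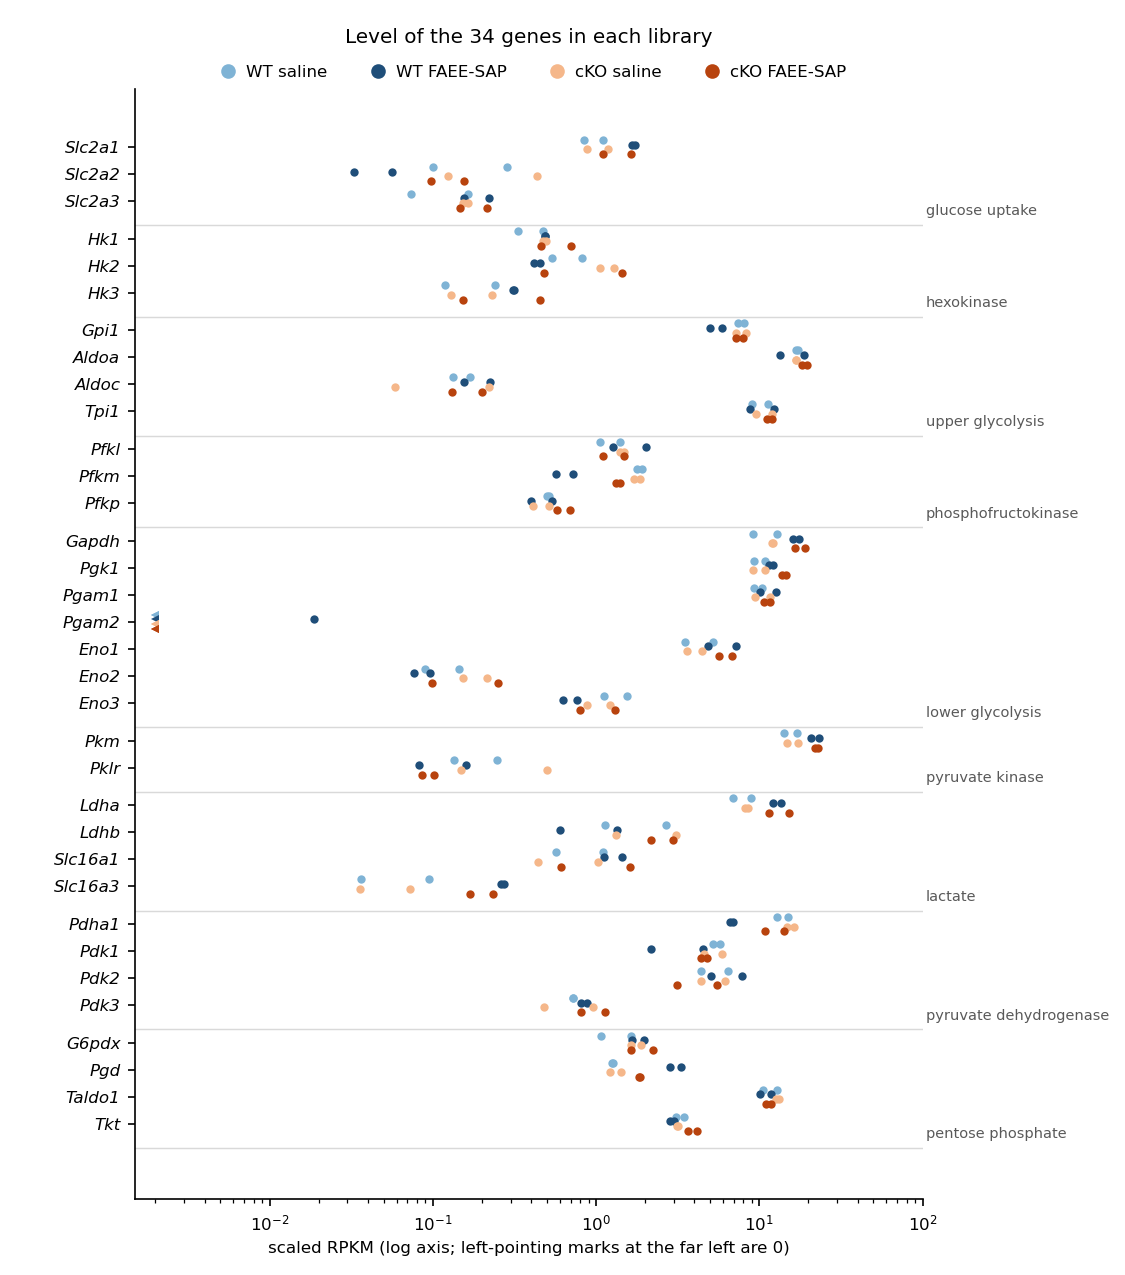
Scaled RPKM (horizontal log axis) of the 34 genes, grouped by role, with 1 dot per library and a colour per group. The 10 genes at or above 5 on average in every group include *Aldoa*, *Pkm*, and *Pdha1*, and *Pfkm*, *Pdha1*, and *Pgd* show WT FAEE-SAP (dark blue) apart from the other groups.

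Not all of the 34 genes could be tested. A gene was tested where its deposited RPKM reached 0.5 in at least 2 libraries of the comparison. That held for 24 genes in all 4 pairwise comparisons, and for none of the comparisons in *Aldoc*, *Pgam2*, *Eno2*, *Pklr*, *Slc2a2*, and *Slc2a3*, which makes 6. In WT, *Hk1*, *Hk3* (a hexokinase of leukocytes), *Pfkp*, and *Slc16a3* (the lactate exporter MCT4) reached 0.5 in the FAEE-SAP libraries and in neither saline library. In cKO the same held for *Pfkp*, and between genotypes with FAEE-SAP *Hk3* and *Slc16a3* reached 0.5 in the WT libraries alone. These genes entered a comparison through a single group.

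Library composition bears on every value. In the deposited RPKM the median gene was 1.24 higher (log2) in WT FAEE-SAP than in WT saline, 0.57 higher in cKO FAEE-SAP than in cKO saline, and 0.91 lower in cKO than in WT with FAEE-SAP. The scaling factors that remove this shift were 0.73 and 0.87 in WT saline, 2.02 and 1.94 in WT FAEE-SAP, 0.62 and 0.67 in cKO saline, and 1.05 and 0.98 in cKO FAEE-SAP. All changes below are relative to the median gene. The acinar marker list (10 genes for digestive enzymes and acinar factors) summed to 232974 to 269997 scaled RPKM in WT saline and 74750 to 77804 in WT FAEE-SAP, and 10 of 10 were called lower. It summed to 313453 to 314444 in cKO saline and 185173 to 204997 in cKO FAEE-SAP. In WT FAEE-SAP against saline, 4 of 8 ductal markers tested and 4 of 9 myeloid markers tested were called higher, and 1 of 10 islet markers was called lower. The myeloid sum was 53.0 and 67.8 in WT saline, 140 and 106 in WT FAEE-SAP, 70.4 and 63.1 in cKO saline, and 97.4 and 76.8 in cKO FAEE-SAP. Of the adipocyte markers, 2 of 9 were called higher and 1 lower, and none of the lymphoid, fibroblast, endothelial, or red-cell markers was called. Skeletal muscle markers were under the minimum, with *Myh4* and *Tnnc2* at 0 in all libraries. No acinar, ductal, islet, or myeloid marker was at 0 in all libraries. In bulk pancreas, fewer cells of a type and less RNA per cell cannot be told apart, and the part of these cell types in the results below was not tested.

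FAEE-SAP against saline in WT tested 28 of the 34 genes and called 3, 1 higher and 2 lower. Across all 10894 genes tested, 6.89% were called, 3.11% higher and 3.78% lower, so 3 of 28 is close to the share of all genes. The median log2 fold change of the 28 was 0.22 beside 0.02 for all genes, and without WT FAEE-SAP replicate 1 it was 0.05, over the 24 genes then tested. Groups did not overlap for 12 higher and 7 lower genes of the 28, beside 29.7% and 29.1% of all genes. The 12 include *Hk1*, *Hk3*, and *Slc16a3*, which entered through the FAEE-SAP libraries alone.

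Of the PFK-1 subunits only *Pfkm* was called, and differences between the subunits were not tested. *Pfkm*, the muscle-type subunit, measured 1.78 and 1.90 in WT saline, 0.721 and 0.566 in WT FAEE-SAP, 1.86 and 1.70 in cKO saline, and 1.32 and 1.40 in cKO FAEE-SAP. Both WT FAEE-SAP libraries lay under all other libraries, and both cKO FAEE-SAP libraries lay between them and saline. With FAEE-SAP *Pfkm* fell by 1.39 in WT (log2, SE 0.23, adjusted p = 0.0283 by limma). In cKO the log2 difference was -0.36 (95% interval -0.82 to 0.09, adjusted p = 0.566). *Pfkl*, the liver-type subunit, was 1.06 and 1.40 in WT saline and 2.03 and 1.28 in WT FAEE-SAP, which overlap. *Pfkp*, the platelet-type subunit, was 0.515 and 0.499 in WT saline and 0.399 and 0.537 in WT FAEE-SAP, which also overlap.

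Shares within a family do not depend on the scaling factor, and these were chosen after the values were seen, so they carry no test. *Pfkm* made up 53.2% and 49.97% of the PFK-1 subunit RPKM in WT saline and 22.9% and 23.8% in WT FAEE-SAP. It made up 48.2% and 48.5% in cKO saline and 37.8% and 45.4% in cKO FAEE-SAP. *Pfkl* took 31.5% and 36.9% in WT saline and 64.4% and 53.7% in WT FAEE-SAP, so the muscle-type and liver-type subunits exchanged places as the larger share. In cKO FAEE-SAP *Pfkl* took 42.4% and 35.9%, above *Pfkm* in replicate 1 and below it in replicate 2.

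*Pdha1*, the E1 alpha subunit through which pyruvate enters the pyruvate dehydrogenase complex, was the other gene called lower. It measured 15.0 and 12.8 in WT saline, 6.61 and 6.87 in WT FAEE-SAP, 14.7 and 16.4 in cKO saline, and 10.9 and 14.2 in cKO FAEE-SAP. The WT FAEE-SAP libraries stood under the other 6, and both cKO FAEE-SAP libraries stood under both cKO saline libraries. *Pdha1* fell by 1.03 in WT (SE 0.18, adjusted p = 0.0314, limma). In cKO the difference was -0.32 (95% interval -0.88 to 0.24, adjusted p = 0.644). *Pdhb*, which encodes the partner E1 beta subunit, differed by -0.02 in WT (95% interval -0.44 to 0.41). The ratio of *Pdha1* to *Pdhb* was 1.55 and 1.49 in WT saline, 0.730 and 0.765 in WT FAEE-SAP, 1.57 and 1.63 in cKO saline, and 1.46 and 1.36 in cKO FAEE-SAP. This ratio too was picked after the values were seen.

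Of the kinases that switch the complex off, the 3 described here, *Pdk1*, *Pdk2*, and *Pdk3*, were not called. *Pdk1*, which hypoxia is known to induce, was 5.77 and 5.22 in WT saline and 4.55 and 2.18 in WT FAEE-SAP, a difference of -0.78 (95% interval -1.66 to 0.10). *Pdk2* differed by 0.24 (-0.49 to 0.98) and *Pdk3* by 0.20 (-0.35 to 0.75). In cKO the 3 kinases differed by -0.18, -0.31, and 0.44, each with overlapping groups. *Pdk4*, a further kinase of the complex from the list of other pathway genes, was not called either. It stood above these 3 in every library, at 16.7 and 8.81 in WT saline and 10.4 and 38.2 in WT FAEE-SAP. Its cKO values were 8.23 and 18.9 with saline and 8.22 and 20.2 with FAEE-SAP, again a wide spread within groups.

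*Pgd*, phosphogluconate dehydrogenase, an NADPH-producing enzyme of the oxidative pentose phosphate branch, was the member called higher. It measured 1.25 and 1.27 in WT saline, 2.82 and 3.33 in WT FAEE-SAP, 1.21 and 1.42 in cKO saline, and 1.85 and 1.83 in cKO FAEE-SAP. The WT FAEE-SAP libraries were above all others, and cKO FAEE-SAP was above both saline groups. *Pgd* rose by 1.22 in WT (SE 0.21, adjusted p = 0.0303, limma), and the difference in cKO was 0.46 (95% interval -0.01 to 0.93, adjusted p = 0.529). *G6pdx*, the enzyme that opens the branch, was 1.07 and 1.65 in WT saline and 1.96 and 1.67 in WT FAEE-SAP, a difference of 0.42 (-0.25 to 1.09). The non-oxidative enzymes *Taldo1* (transaldolase) and *Tkt* (transketolase) differed by -0.09 (-0.56 to 0.39) and -0.15 (-0.63 to 0.32). *Taldo1*, the most abundant of the branch, was 10.6 and 12.8 in WT saline, 11.9 and 10.1 in WT FAEE-SAP, 13.1 and 12.7 in cKO saline, and 11.7 and 11.0 in cKO FAEE-SAP. The ratio of *Pgd* to *Gpi1*, the isomerase at the fork between the pathways, was 0.168 and 0.159 in WT saline and 0.478 and 0.665 in WT FAEE-SAP. It was 0.145 and 0.197 in cKO saline and 0.257 and 0.228 in cKO FAEE-SAP. The ratio was chosen after the values were seen and sets the gene called higher over a gene with lower values in WT FAEE-SAP.

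**Figure D2:**
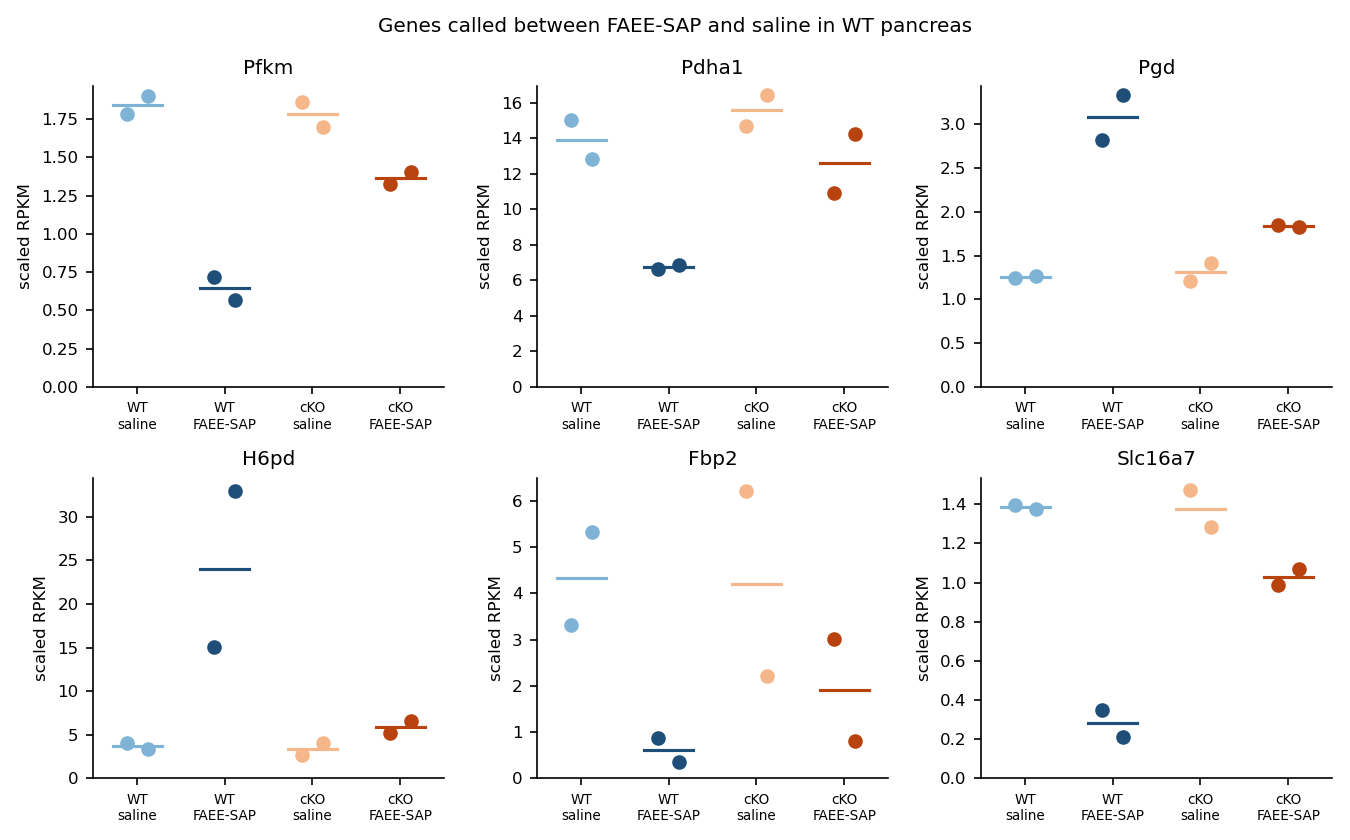
Scaled RPKM (vertical axis from 0) of the 3 called genes and of the 3 listed neighbours called in the same comparison, with 1 dot per library and a bar at the group mean of 2 libraries. For *Pfkm*, *Pdha1*, *Pgd*, *H6pd*, and *Slc16a7* the WT FAEE-SAP libraries lie outside the range of the other 6 libraries. For *Fbp2* the ranges of WT FAEE-SAP and cKO FAEE-SAP meet.

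The 3 calls did not hold in every setting. By the estimated library totals, the 8 libraries held about 111.6 to 150.1 reads of *Pfkm*, 1130 to 1624 of *Pdha1*, and 165.8 to 1360 of *Pgd*. Leaving out any of the 4 WT libraries ended all of them, with adjusted p of 0.058 to 0.136 for *Pfkm*, 0.0776 to 0.147 for *Pdha1*, and 0.0616 to 0.145 for *Pgd*. The lowest of these came without WT FAEE-SAP replicate 1 for *Pfkm* and *Pgd* and without WT saline replicate 2 for *Pdha1*, and the highest came without WT FAEE-SAP replicate 2. All 3 also ended with no filter on low values (adjusted p 0.0588 to 0.0701), with the replicate number as a block (adjusted p 0.056 to 0.0675), and with a pseudocount of 1, where the log2 differences of -0.79, -0.94, and 0.85 missed the 2-fold minimum. *Pdha1* alone ended with the trimmed mean of log ratios (-0.98) and without the mean-variance trend (adjusted p = 0.0533). With a library left out, the log2 differences kept to -1.54 to -1.24, -1.15 to -0.92, and 1.11 to 1.34. In the deposited RPKM *Pfkm* differed by -0.19 and *Pdha1* by 0.27, against the median gene at 1.24, so their lower level holds relative to other genes and not as an RPKM value. With the deposited RPKM untouched, 21 of the 28 genes were called and all were higher, as were 7184 of the 7270 genes called, where the scaled values gave 339 higher and 412 lower.

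The enzymes of the later steps of glycolysis were not called in either genotype. Of the 5 tested from *Gapdh* to the enolases, 4 differences were positive and 1 negative in each genotype. Without overlap, 2 were higher and 1 lower in WT, beside 29.7% and 29.1% of all genes. In cKO 3 were higher and 0 lower, beside 19.6% and 23.6% of all genes. *Gapdh*, the glyceraldehyde phosphate dehydrogenase, was 9.10 and 12.9 in WT saline, 16.1 and 17.6 in WT FAEE-SAP, 12.1 and 11.9 in cKO saline, and 16.5 and 19.0 in cKO FAEE-SAP. Both FAEE-SAP groups stood above both saline groups. The log2 difference was 0.63 in WT (adjusted p = 0.138) and 0.55 in cKO (adjusted p = 0.458, limma). *Pkm* was 14.2 and 16.9 in WT saline, 23.4 and 20.8 in WT FAEE-SAP, 17.2 and 14.8 in cKO saline, and 23.0 and 21.9 in cKO FAEE-SAP. Its differences were 0.51 and 0.49, with 95% intervals of 0.07 to 0.95 and 0.01 to 0.97. *Gapdh* and *Eno1* have processed pseudogenes, and reads shared with those copies could have been split by the authors' counting.

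*Ldha*, the lactate dehydrogenase subunit typical of glycolytic tissue, was 6.95 and 8.95 in WT saline, 12.2 and 13.6 in WT FAEE-SAP, 8.48 and 8.17 in cKO saline, and 15.3 and 11.4 in cKO FAEE-SAP. Every FAEE-SAP library exceeded every saline library. The differences were 0.70 in WT (95% interval 0.20 to 1.19, adjusted p = 0.0917) and 0.66 in cKO (0.10 to 1.22, adjusted p = 0.458, limma). *Ldhb*, the subunit of oxidative tissue, was 2.68 and 1.13 in WT saline, 1.34 and 0.603 in WT FAEE-SAP, 1.33 and 3.11 in cKO saline, and 2.18 and 2.98 in cKO FAEE-SAP, a wide spread within groups. The ratio of *Ldha* to *Pdha1*, between the 2 fates of pyruvate, was 0.462 and 0.699 in WT saline and 1.84 and 1.97 in WT FAEE-SAP. It was 0.577 and 0.497 in cKO saline and 1.40 and 0.803 in cKO FAEE-SAP, with the cKO FAEE-SAP values between the others. It was chosen after the values were seen.

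**Figure D3:**
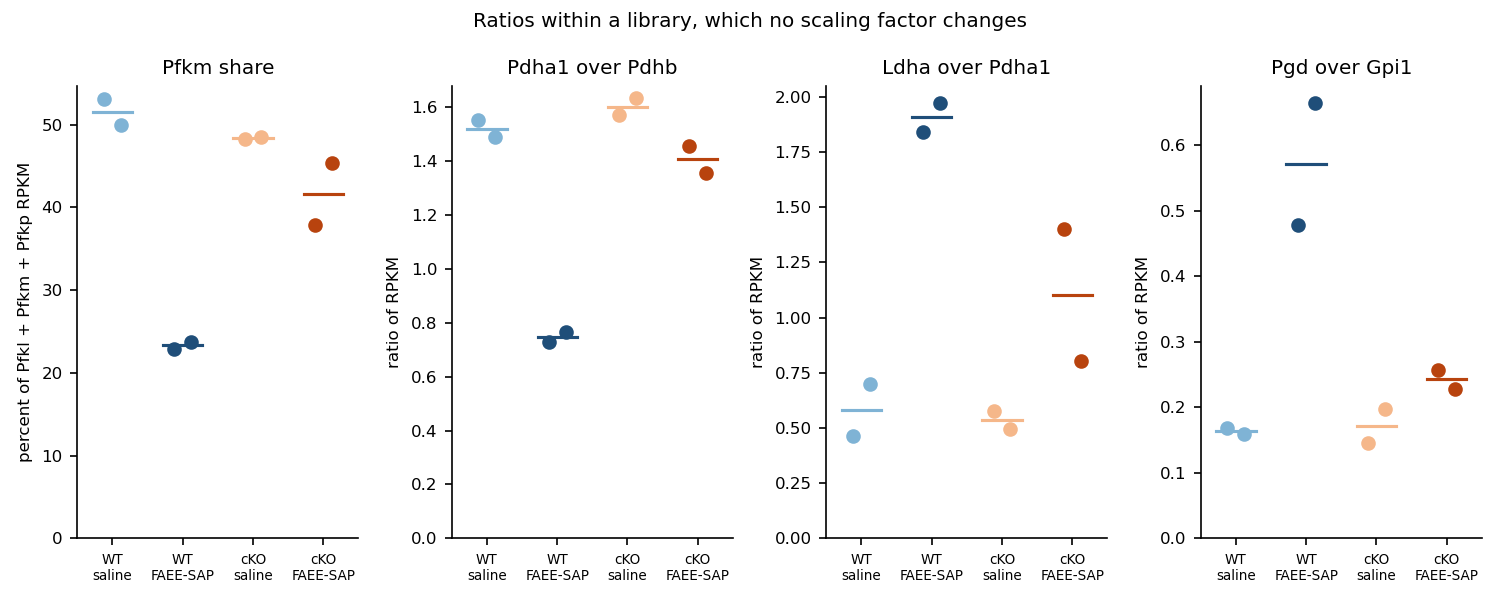
The share of *Pfkm* in the RPKM of the PFK-1 subunits (percent) and the ratios of *Pdha1* to *Pdhb*, *Ldha* to *Pdha1*, and *Pgd* to *Gpi1*, with 1 dot per library and a bar at the mean of 2. The WT FAEE-SAP libraries stand apart in each panel, with a *Pfkm* share of 22.9% and 23.8% beside 37.8% or more in the other 6 libraries.

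Neither lactate carrier was called. *Slc16a1* (MCT1) was 0.569 and 1.10 in WT saline and 1.45 and 1.12 in WT FAEE-SAP, a difference of 0.62 (95% interval -0.22 to 1.47). *Slc16a3* was 0.0364 and 0.0953 in WT saline, 0.271 and 0.261 in WT FAEE-SAP, 0.0722 and 0.0360 in cKO saline, and 0.234 and 0.168 in cKO FAEE-SAP. Its WT difference of 1.17 did not pass (adjusted p = 0.0773, limma), and it was tested only because the WT FAEE-SAP libraries reached the minimum. *Slc2a1* was 0.842 and 1.10 in WT saline, 1.67 and 1.72 in WT FAEE-SAP, 0.876 and 1.19 in cKO saline, and 1.11 and 1.65 in cKO FAEE-SAP. Its WT groups did not overlap, with a difference of 0.76 (95% interval 0.19 to 1.33, adjusted p = 0.104, limma). *Hk2*, the inducible hexokinase and the highest of the 3 in saline, was 0.535 and 0.821 in WT saline, 0.455 and 0.418 in WT FAEE-SAP, 1.06 and 1.28 in cKO saline, and 0.481 and 1.45 in cKO FAEE-SAP. The cKO FAEE-SAP libraries lay far apart.

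The remaining glycolytic enzymes were not called in WT. *Aldoa* was 16.7 and 17.4 in WT saline, 18.9 and 13.5 in WT FAEE-SAP, 16.8 and 16.7 in cKO saline, and 18.4 and 19.6 in cKO FAEE-SAP. Its WT difference was -0.09 (95% interval -0.62 to 0.43). *Tpi1* (triose phosphate isomerase) differed by 0.04 (-0.54 to 0.63), *Pgam1* (phosphoglycerate mutase) by 0.20 (-0.28 to 0.69), and *Pgk1* (phosphoglycerate kinase) by 0.24 (-0.19 to 0.68). *Gpi1* was lower without overlap, 7.41 and 8.01 against 5.91 and 5.01, with a difference of -0.49 (-0.96 to -0.03, adjusted p = 0.158, limma). The enolases differed in sign, at 0.46 for *Eno1* (adjusted p = 0.372) and -0.84 for *Eno3*, the muscle enolase (adjusted p = 0.109, limma). Of the 28 genes tested, 16 differed by less than 1.5-fold in WT, and for 12 the 95% interval stayed within 2-fold.

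FAEE-SAP against saline in cKO tested 25 of the genes and called none (limma), where 0.0531% of the 9423 genes tested were called, which is 5 genes. At an unadjusted p under 0.05 there were 5 of the 25, *Gapdh*, *Pgk1*, *Eno1*, *Pkm*, and *Ldha*, all positive, with log2 differences of 0.55, 0.51, 0.62, 0.49, and 0.66. Of all genes tested, 901 (9.56%) reached that unadjusted p. Groups did not overlap for 9 higher and 3 lower genes, beside 19.6% and 23.6% of all genes, and the 9 include *Pfkp*. The median difference was 0.18 beside -0.04 for all genes, and 0.12 without cKO FAEE-SAP replicate 2. *Pgk1* was 10.9 and 9.20 in cKO saline and 14.6 and 13.9 in cKO FAEE-SAP. For 23 of the 25 the estimate was under 1.5-fold, and for 15 the 95% interval lay within 2-fold.

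The 2 treatment comparisons share no libraries, and the difference between them was tested as an interaction term in a fit to the 8 libraries together. This covered 28 of the genes, none of which was called (limma), beside 0.0719% of 11133 genes. At an unadjusted p under 0.05 there were 3 of the 28, beside 1398 (12.6%) of all genes. *Pfkm* had an interaction of 1.03 (95% interval 0.42 to 1.64, unadjusted p = 0.00496, adjusted p = 0.23), *Pdha1* 0.71 (0.10 to 1.33, adjusted p = 0.346), and *Pgd* -0.76 (-1.34 to -0.18, adjusted p = 0.308). The 3 calls in WT are therefore not shown to differ from cKO. For *Gapdh*, *Pkm*, and *Ldha* the interaction was -0.07, -0.02, and -0.04, with 95% intervals of -0.74 to 0.59, -0.57 to 0.54, and -0.72 to 0.65. *Tkt* was 3.08 and 3.47 in WT saline, 3.001 and 2.86 in WT FAEE-SAP, 3.12 and 3.20 in cKO saline, and 3.64 and 4.13 in cKO FAEE-SAP. It was thus lower without overlap in WT and higher without overlap in cKO, with an interaction of 0.44 (-0.10 to 0.98, adjusted p = 0.48, limma).

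**Figure D4:**
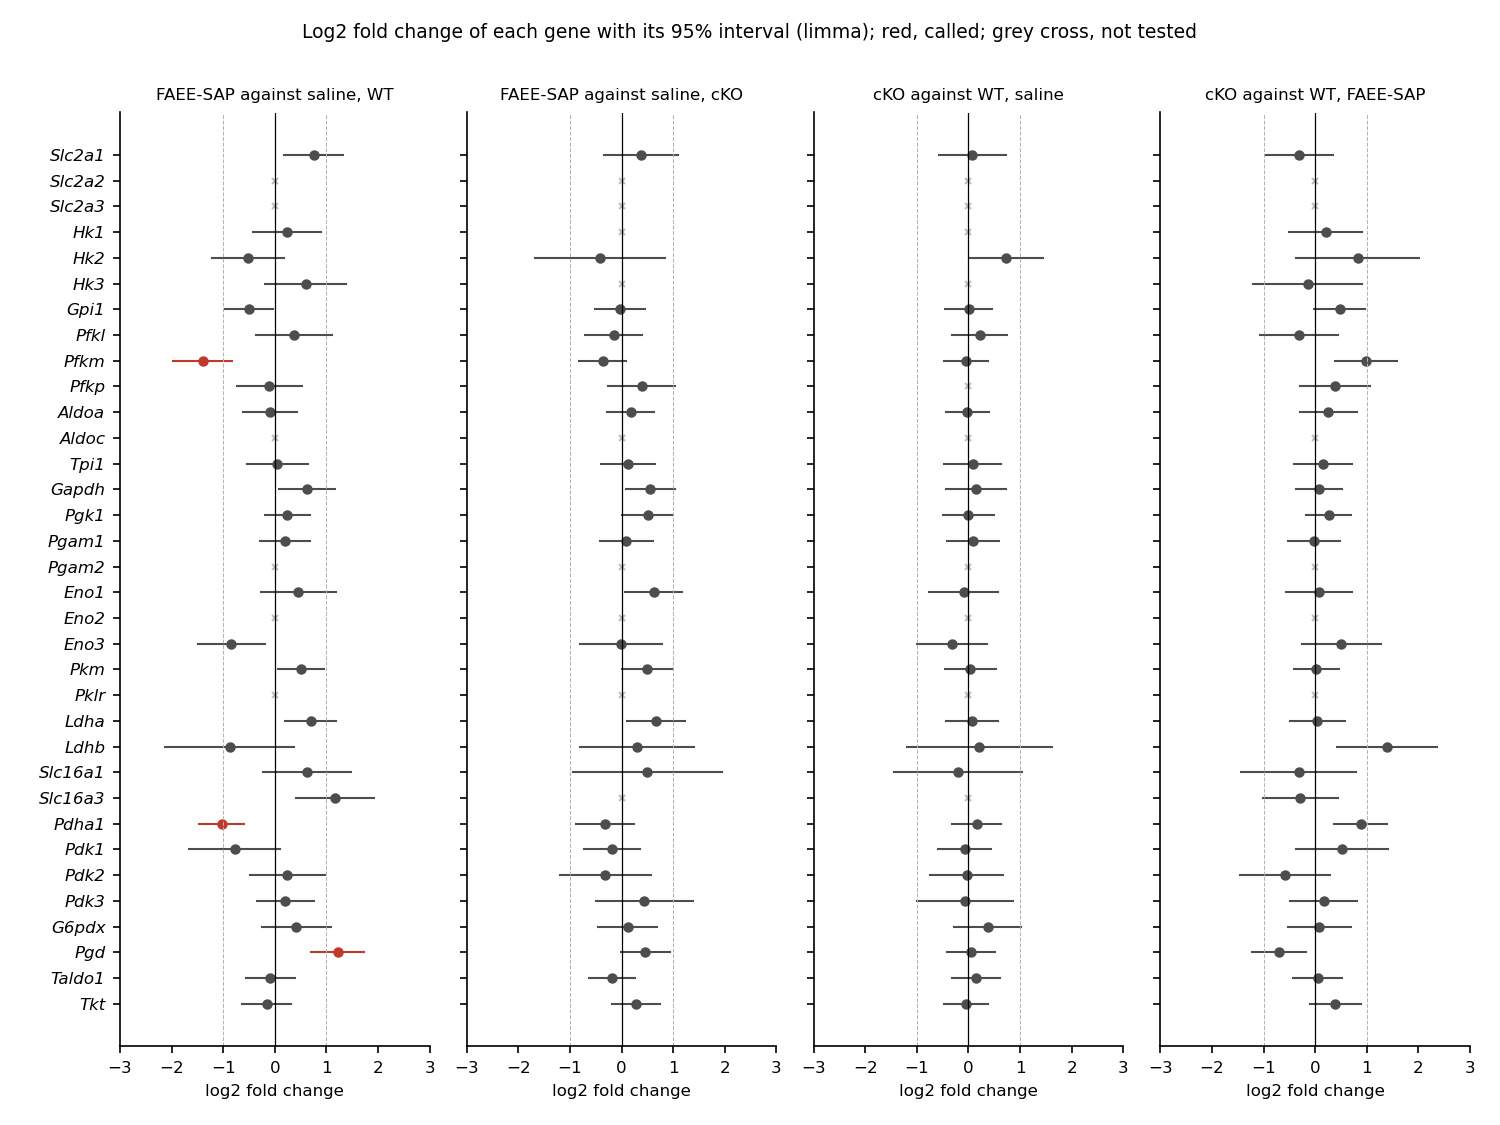
Log2 fold change (horizontal axis) with its 95% interval for each of the 34 genes in the 4 pairwise comparisons, with called genes in red and a grey cross for genes not tested. Dashed lines mark 2-fold. *Pfkm*, *Pdha1*, and *Pgd* are called in WT, and with saline the interval of *Hk2* (0.02 to 1.44) is the only one of the 24 that leaves out 0.

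With saline, cKO and WT were tested for 24 of the genes and none was called (limma), as was none of the 8715 genes tested (0.0%). Of all genes, 198 had an unadjusted p under 0.05, and of the 24 only *Hk2* did, with a difference of 0.73 (95% interval 0.02 to 1.44, unadjusted p = 0.0461, adjusted p = 1). With scaling factors worked out within the comparison, all 8 libraries in 1 model, or the replicate block, 0 of the 24 reached that p. *Hk2* was also the only gene of the 24 without overlap, where 16.3% of all genes were higher and 12.0% lower without overlap. The median difference was 0.05 beside 0.04 for all genes, -0.05 without WT saline replicate 1, and 0.13 without cKO saline replicate 1. The estimate was under 1.5-fold for 23 of the 24, and the 95% interval lay within 2-fold for 20. The wider intervals were those of *Hk2*, *Ldhb*, *Slc16a1*, and *G6pdx*.

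With FAEE-SAP, cKO and WT were tested for 28 of the genes, and again none was called (limma). Of 11008 genes tested, 1.17% were called, 0.818% higher in cKO and 0.354% lower. Groups did not overlap for 9 higher and 3 lower genes, beside 26.5% and 25.3% of all genes, and the 3 lower include *Slc16a3*, which entered through the WT libraries alone. The median difference was 0.12 beside 0.00 for all genes. It was 0.22 without WT FAEE-SAP replicate 1, 0.06 without WT FAEE-SAP replicate 2, and 0.23 without cKO FAEE-SAP replicate 2. At an unadjusted p under 0.05 there were 4 of the 28, beside 2160 (19.6%) of all genes: *Pdha1* (0.88, 95% interval 0.36 to 1.40), *Pfkm* (0.98, 0.39 to 1.58), *Ldhb* (1.40, 0.42 to 2.37), and *Pgd* (-0.71, -1.23 to -0.18). Their adjusted p were 0.126, 0.13, 0.159, and 0.17. This comparison shares its WT FAEE-SAP libraries with the comparison in WT, so the same low *Pfkm* and *Pdha1* values enter both. *Gapdh*, *Pkm*, and *Ldha* differed by 0.07 (-0.38 to 0.53), 0.02 (-0.41 to 0.45), and 0.04 (-0.50 to 0.58). For 15 of the 28 genes the 95% interval lay within 2-fold. In the same comparison, 6 of 10 acinar, 3 of 10 islet, and 1 of 9 adipocyte markers were called higher. Of the myeloid markers 2 of 9 were called lower, and the part of these cell types in the differences was not tested. Of all genes, 90 were called higher and 39 lower, against 44 and 37 after quantile normalization and 73 and 4354 with the deposited RPKM, where 5 of the 28 were called and all were lower.

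*Pfkfb3* itself was 1.70 and 1.69 in WT saline, 1.85 and 3.21 in WT FAEE-SAP, 0.880 and 2.10 in cKO saline, and 1.74 and 2.82 in cKO FAEE-SAP, with overlap between genotypes in both treatments. The deletion removes 2 exons, and a value for the whole gene in bulk tissue does not check it.

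A list of 58 other genes of these pathways, of which 57 have a row, gave 39 tested in WT. With FAEE-SAP 1 was called higher and 2 lower, beside 3.11% and 3.78% of all genes, so 3 of 39 is close to the share of all genes. *H6pd*, which makes NADPH from glucose phosphate inside the endoplasmic reticulum, was 4.10 and 3.40 in WT saline, 15.0 and 33.0 in WT FAEE-SAP, 2.73 and 4.04 in cKO saline, and 5.17 and 6.56 in cKO FAEE-SAP. It rose by 2.54 in WT (SE 0.38, adjusted p = 0.0219, limma). *Slc16a7* (MCT2, a high-affinity carrier of lactate and pyruvate) was 1.40 and 1.38 in WT saline, 0.351 and 0.211 in WT FAEE-SAP, 1.47 and 1.28 in cKO saline, and 0.986 and 1.07 in cKO FAEE-SAP, and fell by 1.99 in WT (adjusted p = 0.0178, limma). *Fbp2*, a gluconeogenic fructose bisphosphatase, was 3.32 and 5.32 in WT saline, 0.862 and 0.357 in WT FAEE-SAP, 6.21 and 2.20 in cKO saline, and 3.01 and 0.801 in cKO FAEE-SAP, and fell by 2.70 in WT (adjusted p = 0.0244, limma). Each of these 3 calls was also lost when certain single libraries were left out, which leaves 1 library in a group. The log2 differences kept their direction, at 1.98 to 3.11 for *H6pd*, -3.24 to -2.16 for *Fbp2*, and -2.26 to -1.72 for *Slc16a7*. *H6pd* and *Fbp2* were each lost without WT saline replicate 1, WT saline replicate 2, or WT FAEE-SAP replicate 2, with adjusted p of 0.0605 to 0.0638 and 0.0545 to 0.103. *Slc16a7* was lost without WT saline replicate 1 (0.0616) or WT FAEE-SAP replicate 2 (0.109, limma). None of the list was called in the other comparisons, with 34 tested in cKO, 34 between genotypes with saline, 38 with FAEE-SAP, and 40 for the interaction.

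The 3 called genes lie on different chromosomes (GENCODE vM21, GRCm38). *Pfkm* spans chr15:98092589-98132451 on the plus strand, *Pdha1* chrX:160122209-160138413 on the minus strand, and *Pgd* chr4:149149991-149166771 on the minus strand.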

How the data were processed

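RNA-Seq of pancreas was used for 8 libraries, 2 in each of 4 groups, grouped by the labels. A directional library kit was used, and paired-end reads were filtered with fastp and mapped to Ensembl GRCm38 with CLC Genomics Workbench. The authors deposited RPKM for 48709 genes in each library. How RPKM was computed is not given in the sources used here. The steps of the low values put the library totals at about 22.9 to 37.7 M reads, and these totals are estimates that entered no test. By symbol, 46328 genes (95.1%) were matched to GENCODE vM21.

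RPKM was divided by the median of ratios to the geometric mean over 10985 genes. Genes with RPKM of at least 0.5 in at least 2 libraries of a comparison were tested as log2(scaled RPKM + 0.1) with limma (version 3.58.1, R 4.3.3), which let the prior variance follow expression. P-values were adjusted by Benjamini-Hochberg over all genes tested. A fold change on this scale understates that of low genes. With 2 libraries per group, an exact permutation test could not pass the threshold and was not used, since its smallest p is 0.33. Values in every library are given for called members and for the highest member of each role.

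The members and lists were chosen with earlier results of these data known. Alternatives covered scaling, filter, pseudocount, variance model, replicate block, and leaving out each library.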

Additional observations from a re-analysis of the deposited data

How the results depend on the processing

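Over the 34 genes, the count called with FAEE-SAP in WT (3) became 21, all higher, in the values as deposited, 0 with no filter, 0 with a pseudocount of 1, 0 with the replicate block, and 0 to 1 when a library was left out, where the lone library of an arm is assumed to vary like the others. The 1 was *Slc16a3* without WT saline replicate 2. The count between cKO and WT with FAEE-SAP (0) became 1 at an unadjusted p and 5, all lower, in the values as deposited. The interaction count (0) became 1 in each of these settings. In the values as deposited, *Pfkp* (1.02), *Aldoa* (1.22), *Pdha1* (0.27), *Taldo1* (1.22), and *Tkt* (1.13) turned positive in WT, where the median of all genes was 1.24. With a pseudocount of 1 the 3 genes kept adjusted p of 0.0291 to 0.0322 and missed the 2-fold minimum, which that pseudocount moves by construction. With no filter, 19311 genes were tested. No other alternative moved these counts by over 1.5 times, but *Pdha1* was not called with the trimmed mean of log ratios (-0.98, under 2-fold) or without the trend (adjusted p = 0.0533), and *Pfkm* was not tested at an RPKM minimum of 2. Of the other pathway genes, *H6pd*, *Fbp2*, and *Slc16a7* were lost with no filter (0.0586 to 0.0673), *Fbp2* with all libraries in 1 model (0.0516), and *Slc16a7* with a pseudocount of 1 and as deposited, where it missed the 2-fold minimum.

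The labels name no pairing behind the replicate numbers, and with 2 pairs a comparison the values do not settle it. Deviations of same-numbered libraries correlated at -0.18, -0.32, and -0.52 between WT saline and WT FAEE-SAP, cKO saline, and cKO FAEE-SAP. Among the other groups they correlated at 0.19 to 0.40. The replicate block gave adjusted p of 0.056 to 0.0675 for *Pfkm*, *Pdha1*, and *Pgd* in WT. Pairing the WT libraries crosswise, chosen after seeing the data, gave 3 calls of the 34 and 1110 of all genes.

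Calls over all genes moved too. In WT (751) they were 1298 at an unadjusted p, 7270 as deposited, 269 with no filter, 431 with a pseudocount of 1, and 83 to 390 with a library left out. Between genotypes with FAEE-SAP (129) they were 887, 4427, and 0 in the first 3 of these settings, 81 after quantile normalization, 296 with all libraries in 1 model, 43 without the trend, 717 with the block, and 0 to 67 with a library left out. In cKO (5) they were 288, 15, and 0 in the same first 3 settings, 16 with all libraries in 1 model, 136 with the block, and 0 to 5. With saline (0) they were 68 at an unadjusted p, 2 as deposited, and 1 after quantile normalization. For the interaction (8) they ranged from 0 to 791. The depth behind low genes such as *Slc16a3* and *Hk3* limits what their values can show.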
